A study of Mus musculus with 4 samples.

Results

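The TRIM family is a set of proteins built on the tripartite motif, a RING domain followed by B-box zinc fingers and a coiled coil, in most members with a further domain at the carboxy end. Here its genes were taken by symbol, as every name in the deposited tables that reads Trim, a number and at most 1 letter, and they are 55 of the 18256 gene symbols in the tables. The RING domain recruits a ubiquitin-loaded E2 enzyme and passes ubiquitin to a substrate chosen by the coiled coil and the carboxy-terminal domain, most often a PRY-SPRY domain. In macrophages the family is known for tagging sensors of viral RNA and DNA and their adaptors, for binding viral capsids and antibody-coated particles, and for limiting inflammatory signals. Many of its genes are known interferon-stimulated genes. A PHD-bromodomain branch works on chromatin, and other branches serve microtubules, neurons and muscle.

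Bone marrow cells of wild-type mice had been grown into macrophages with 20 ng/ml macrophage colony-stimulating factor (MCSF), which drives monocyte progenitors to macrophages, over 7 days, and then kept for 24 h in 1 of 2 media. M1 macrophages received 20 ng/ml interferon gamma and 100 ng/ml lipopolysaccharide (LPS), a bacterial ligand of TLR4, and M0 macrophages received 20 ng/ml MCSF alone. The labels do not say whether MCSF stayed in the M1 medium, and they give neither the strain nor the age of the mice. Total RNA depleted of ribosomal RNA was sequenced from 2 libraries a group, and nothing in the labels says that these came from separate mice or cultures, so the p-values measure the spread between these libraries, which may be technical.

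The M1 libraries held 17838606 and 17633945 counted reads and the M0 libraries 18987705 and 15921466. Levels below are in CPM, each gene's count taken relative to the library total after scaling by edgeR's TMM factor, fold changes are log2 of M1 over M0, and a gene was called at a Benjamini-Hochberg adjusted p below 0.05 in edgeR's quasi-likelihood test over all 12966 genes with enough counts. Of those genes 3140 (24.2%) were called higher in M1 and 3108 (24%) lower, and 1287 (9.93%) and 1504 (11.6%) were called with a log2 fold change of at least 1 up or down. Expression ranks correlated at Spearman 0.993 within M1, 0.994 within M0 and 0.893 to 0.902 between the groups. With 2 libraries a group, an exact permutation test of a single gene cannot give a p below 0.333, so each call rests on the spread that the fit shares over genes. All 11 macrophage markers examined were counted, with a summed level of 30900 and 30300 CPM in M1 and 22600 and 25400 CPM in M0. Lyz2 made up most of that sum, and 4 of the 11 were called higher and 5 lower, among them Mertk (log2 fold change -1.55). Neutrophil markers summed to 382 and 356 CPM in M1 and to 347 and 358 CPM in M0, with 6 of 9 tested markers lower and 2 higher. Csf3r, 1 of the 2 higher, gave 232.6 and 246.2 CPM of the M1 sums and 108.1 and 108.2 CPM of the M0 sums. Stromal markers summed to 514 and 582 CPM in M1 against 805 and 785 CPM in M0, with 3 higher and 3 lower of 6 tested. Col1a1, Col1a2 and Postn, the 3 lower, made up most of those sums, and the 3 higher were at most 14.95 CPM in any library. The T and NK cell, B cell, erythroid and mast cell lists each summed to at most 6.47 CPM in any library, with Cd3g, Ncr1 and Ms4a1 among the genes at 0 in all 4. In bulk RNA, fewer cells of a type and less RNA per cell cannot be told apart, and the part of these other cells in the results below was not tested.

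TRIM transcripts took a larger share of the M1 libraries, with a set of interferon-linked ligases higher, a smaller set of other members lower, and most regulators of signalling below the threshold. Of the 55 genes, 41 had enough counts to be tested. Of these, 15 were higher in M1, 7 were lower and 19 did not pass, and 11 of the higher and 2 of the lower had a log2 fold change of at least 1 in size. The members called higher were 36.6% of those tested, beside 24.2% of all tested genes, and those called lower were 17.1%, beside 24%. The median log2 fold change of the tested members was -0.03, beside -0.02 for all tested genes, while their upper quartile was 1.14, beside 0.43. Scaling by library totals alone gave 14 members higher and 14 lower, and over all genes 2026 higher and 4776 lower. The count of lower members was 3 without M0 replicate 1 and 4 without M0 replicate 2. Summed over the family, the level was 3408 and 3472.2 CPM in the M1 libraries and 1997.7 and 1965.7 CPM in the M0 libraries, so the groups stood apart. The M1 and M0 libraries did not overlap in 31 of the 41 tested members (75.6%), which is near the 74.9% of all tested genes. Among members that did not pass it was 9 of 19 (47.4%), beside 51.7% of all genes that did not pass, so the lack of overlap sets no member apart.

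**Figure D1:**
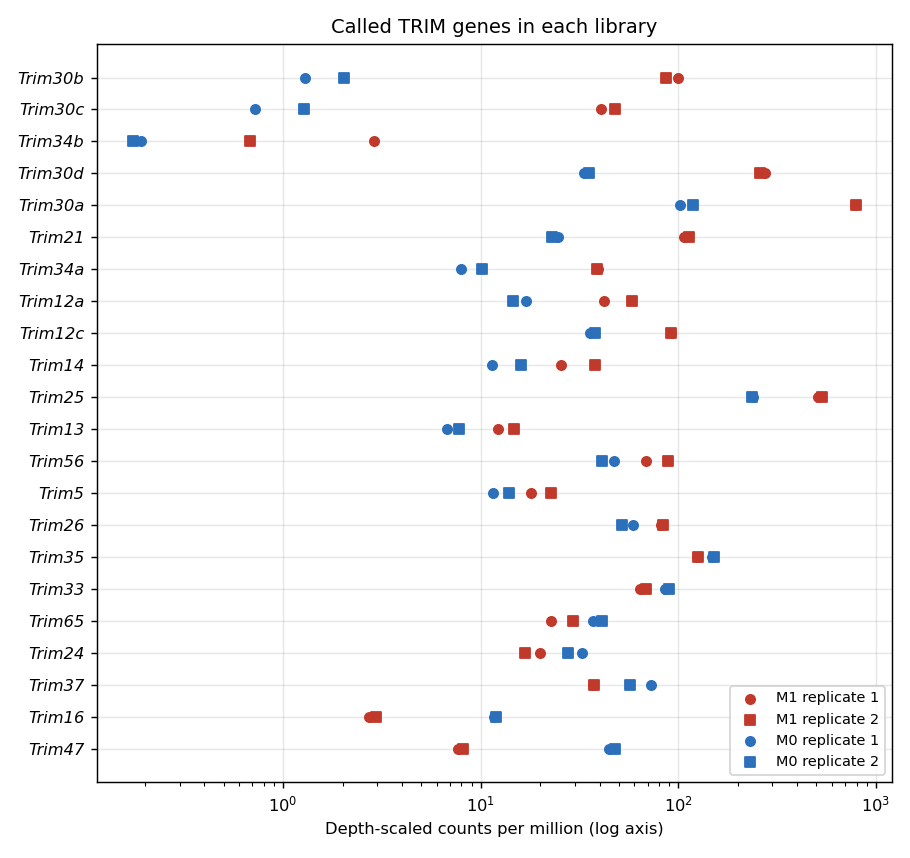
Level of each called TRIM gene in every library, in depth-scaled CPM on a log axis, with M1 in red and M0 in blue and a marker shape for each replicate. Genes run from the highest fold change at the top to the lowest at the bottom, and the widest gaps between red and blue points are those of Trim30b and Trim30c, at log2 fold changes of 5.83 and 5.49.

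Sorted by role, the calls fell unevenly. All 15 members listed for interferon-linked restriction and sensing were tested, 14 were higher in M1, and the remaining member, Trim65, was lower, with a median log2 fold change of 1.67. That list names genes many of which are known to respond to interferon, so its direction is no independent evidence. It was also drawn with earlier results of these data known, and it leaves out Trim6, which did not pass. Of 11 regulators of TLR, RIG-I, STING or NF-kB signalling, 9 were tested, and only Trim13 was called. Of 4 chromatin members 3 were tested and 2 were lower, none of the 4 tested neuronal or cytoskeletal members passed, and none of the 3 striated muscle members had enough counts. Of 17 members with other roles, Trim6 among them, 10 were tested, 4 were lower and none was higher. By listed carboxy-terminal class, 13 of the 15 higher members were in the PRY-SPRY class, which had 25 tested, 4 lower and 8 that did not pass. The classes were assigned by gene symbol, and the presence of the domain in each protein was not checked.

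**Figure D2:**
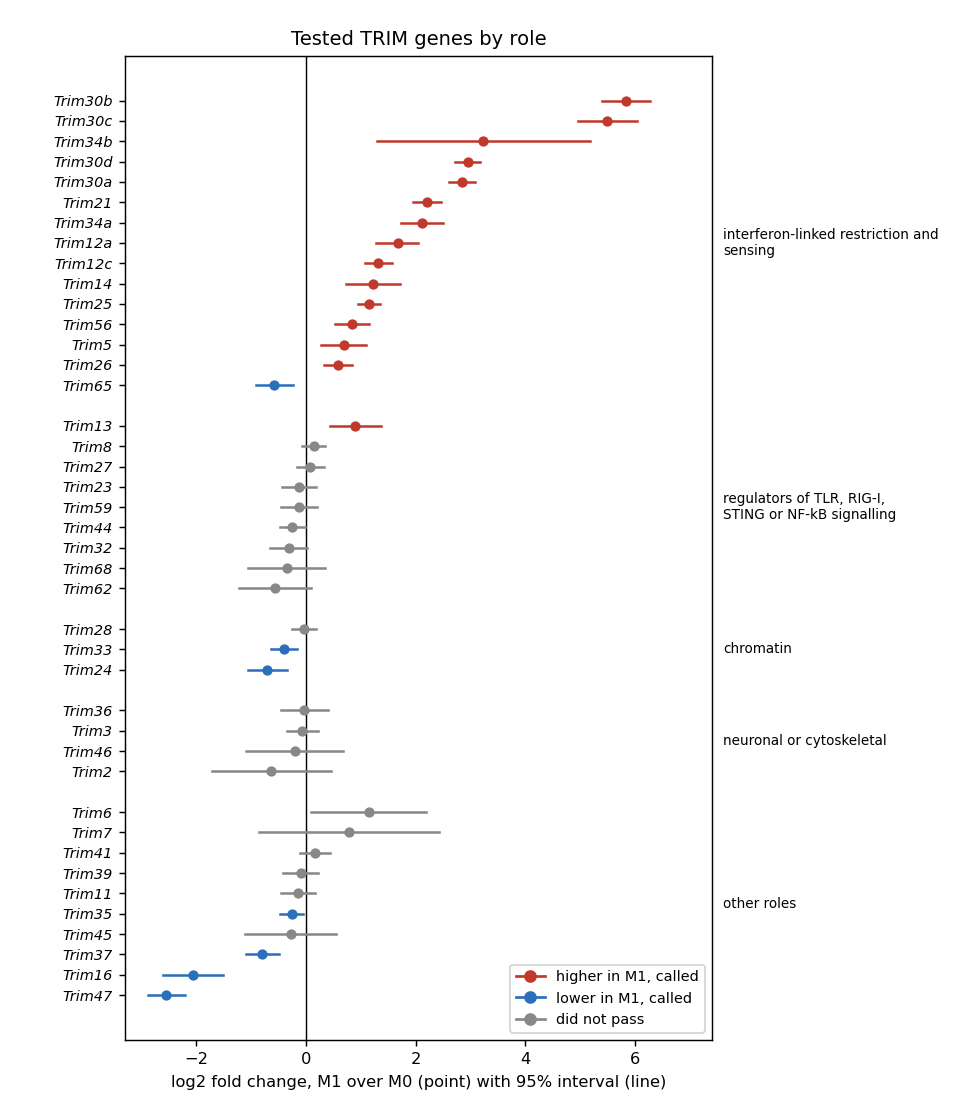
Log2 fold change of M1 over M0 for the 41 tested TRIM genes, grouped by role, with points for the estimate and lines for its 95% interval, in red where called higher, in blue where called lower and in grey where the gene did not pass. The interferon-linked list runs from 5.83 for Trim30b to -0.58 for Trim65, while the signalling regulators sit between 0.90 and -0.57.

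The largest rises lay side by side on chromosome 7. Trim6, Trim34a, Trim5, Trim12a, Trim34b, Trim12c, Trim30b, Trim30c, Trim30a and Trim30d lie in that order in chr7:104218793-104507849 (GENCODE M21, mouse build GRCm38), 289057 bases with only 2 other counted genes, Gm15133 and Gm25405. The block corresponds to the human neighbourhood of TRIM5, TRIM6, TRIM22 and TRIM34, and the Trim12 and Trim30 genes are mouse expansions of it. Of its 10 members 9 were higher, with a median log2 fold change of 2.48, and Trim6 did not pass. Outside it, 6 of 31 tested members were higher and 7 lower, with a median of -0.13. The block made up 41 and 40.4% of the family's CPM in M1, against 10.6 and 12% in M0. Gm15133, the other tested gene inside it, had a log2 fold change of 1.03 that did not pass (edgeR adjusted p = 0.2601). The counted genes on either side, olfactory receptor genes, Hbb-y and Trim30e-ps1, had at most 3 counts in a library.

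Trim30a, which in mouse macrophages limits TLR signalling by sending TAB2 and TAB3 for degradation, was at 785.3 and 794.6 CPM in M1 and at 102.0 and 118.4 CPM in M0. The log2 fold change was 2.84 (SE 0.108, edgeR adjusted p = 3.125e-09), a 7.17-fold rise with no overlap. Trim30d was at 273.7 and 260.2 CPM in M1 and at 33.51 and 35.52 CPM in M0, a log2 fold change of 2.95 (SE 0.105, edgeR adjusted p = 1.982e-09). These 2 neighbours, both well above the floor in M0, thus rose by a similar factor.

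Trim30b and Trim30c started from almost nothing. Trim30b was at 100.0 and 86.3 CPM in M1 and at 1.294 and 2.028 CPM in M0, a log2 fold change of 5.83 (SE 0.199, edgeR adjusted p = 1.37e-09). Trim30c was at 40.56 and 48.04 CPM in M1 and at 0.7191 and 1.275 CPM in M0, a log2 fold change of 5.49 (SE 0.247, edgeR adjusted p = 1.217e-08). In reads, the M0 libraries gave 27 and 35 for Trim30b and 15 and 22 for Trim30c, so both were detected in M0, and their 95% intervals (5.39 to 6.27 and 4.95 to 6.04) lie above those of Trim30a (2.60 to 3.08) and Trim30d (2.72 to 3.18). Of the 50-base windows in the exons of the 4 Trim30 genes, 0.66 to 7.49% also occur in another gene's transcripts. Only exact matches were counted, and trading of reads between these genes was not tested. Together the 4 genes made up 35.2 and 34.2% of the family's CPM in M1, against 6.89 and 8% in M0.

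The Trim12 pair and Trim5 are the mouse relatives of primate TRIM5, which binds retroviral capsids, and Trim12c is reported to promote type I interferon and NF-kB signalling in mouse cells. Trim12a was at 42.22 and 58.31 CPM in M1 and at 16.97 and 14.66 CPM in M0, a log2 fold change of 1.67 (SE 0.175, edgeR adjusted p = 1.452e-05). Trim12c was at 91.58 and 92.14 CPM in M1 and at 35.67 and 37.78 CPM in M0, a log2 fold change of 1.32 (SE 0.110, edgeR adjusted p = 2.148e-06). Trim5 was at 17.97 and 22.82 CPM in M1 and at 11.51 and 13.91 CPM in M0, and its log2 fold change of 0.69 was the smallest called in the block. The Trim5 call (edgeR adjusted p = 0.01141) was lost without M0 replicate 1 (0.1593), M0 replicate 2 (0.07118) or M1 replicate 2 (0.07291), and with library totals (log2 fold change 0.43, 0.07464). In exon sequence, 36.6% of Trim5 windows, 33.7% of Trim12c windows and 10.5% of Trim12a windows occur in another gene's transcripts, each other's among them, so reads may have been split or dropped and the values of these 3 genes are uncertain to that degree.

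Human TRIM34 is known to act with TRIM5 on retroviral capsids. Trim34a was at 39.39 and 38.81 CPM in M1 and at 7.911 and 10.20 CPM in M0, a log2 fold change of 2.12 (SE 0.168, edgeR adjusted p = 1.466e-06). Trim34b had only 47 and 11 reads in M1 and 4 and 3 in M0, which is 2.893 and 0.6766 CPM against 0.1918 and 0.1738 CPM, and 3 reads is the floor used here. Its log2 fold change of 3.23 had a wide 95% interval of 1.3 to 5.17 (edgeR adjusted p = 0.01049), and the call was lost without M0 replicate 1 (0.1597), M0 replicate 2 (0.1604) or M1 replicate 1, where the log2 fold change was 1.84 (0.2756). Trim34a and Trim34b share 59.7 and 56.8% of their windows with other transcripts, mostly each other's, and 23.5% of Trim34a exon bases lie opposite Gm47248, so the 2 genes cannot be separated with confidence. Trim6, which builds unanchored ubiquitin chains that activate IKK-epsilon, was at 4.8 and 2.214 CPM in M1 and at 1.438 and 1.738 CPM in M0. Its log2 fold change of 1.14 did not pass (95% interval 0.09 to 2.19, edgeR adjusted p = 0.06881), but passed without M1 replicate 2 (1.61, 0.0144).

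**Figure D3:**
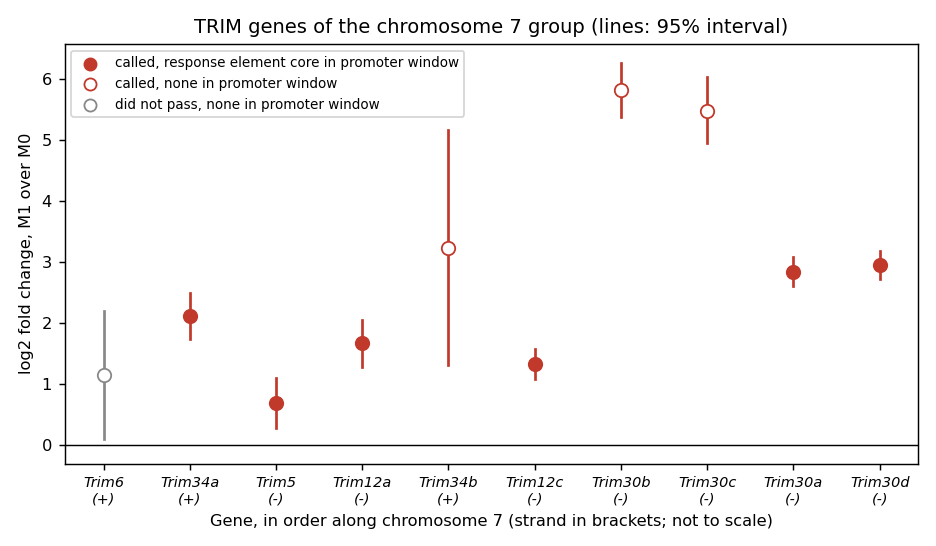
Log2 fold change of M1 over M0 for the 10 TRIM genes of the chromosome 7 block in genomic order, not to scale, with lines for the 95% interval and the strand in brackets. Filled circles mark genes with an interferon-stimulated response element core in a promoter window, which those of the 2 highest, Trim30b and Trim30c, do not hold. The RefSeq start of the Trim30b window lies 11238 bases from the GENCODE start of that gene. The Trim30c window holds a stretch that differs from the Trim30a core at 1 base.

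Interferon signals reach DNA through transcription factors that bind the interferon-stimulated response element (ISRE) or the gamma-activated site. Promoter windows of 300 bases, from 250 before to 50 after a RefSeq start (build GRCm38.p6), were at hand for 42 of the 55 members. Each was searched on both strands for an ISRE core, taken as GAAA followed 2 bases later by GAAA, for a gamma-activated core, TTCNNNGAA, and for a kB form with GGGA and TTCC 2 bases apart. The ISRE core was in the windows of 9 members (21.4%), beside 3.99% of the 27025 genes in the table. Among members with a window, 8 of the 14 called higher held it (Trim12a, Trim12c, Trim21, Trim26, Trim30a, Trim30d, Trim34a and Trim5). Of the 15 that did not pass, 1 held it, Trim2. It was in none of 3 lower members and none of 10 untested members with a window. In the chromosome 7 block, the 6 members with the core had a median log2 fold change of 1.89, and the 4 without it had a median of 4.36. Those 4 were Trim6, Trim30b, Trim30c and Trim34b. The RefSeq start of the Trim30b window lies 11238 bases from the GENCODE start of that gene, and Trim34b had at most 47 reads in a library. These medians therefore do not compare promoters known to be in use. The gamma-activated core was in 5 members (11.9%), beside 9.55% of all genes, and Trim30c was the only called member among them. The kB form was in 1 member, Trim28 (2.38%), beside 1.63% of all genes. Near-identical promoters are not independent matches. Trim12a and Trim5 aligned without a difference over 241 bases, and Trim30a and Trim30d were 93.9% identical over 294 aligned columns.

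The stretches around these cores are shown for the called genes of the block that hold one, with Trim30c beside them. Trim21 and Trim26 are added as the called members with a core elsewhere. The core reads the same in Trim30a and Trim30d, and the same in Trim12a, Trim12c and Trim5. Trim30b and Trim34b, also called, hold no core in their windows and have no line. Capitals mark the core on either strand, except in Trim30c, which holds no core in its window. Its line is the stretch most like that of Trim30a, with capitals at the bases that align with the Trim30a core. At most 30 bases after a start site are shown.
Trim30a: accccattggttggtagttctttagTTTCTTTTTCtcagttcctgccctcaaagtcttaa
Trim30d: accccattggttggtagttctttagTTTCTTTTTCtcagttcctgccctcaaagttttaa
Trim30c: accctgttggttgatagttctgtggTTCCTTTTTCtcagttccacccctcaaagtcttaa
Trim12a: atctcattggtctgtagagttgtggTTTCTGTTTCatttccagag
Trim12c: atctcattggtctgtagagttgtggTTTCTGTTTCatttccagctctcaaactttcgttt
Trim5: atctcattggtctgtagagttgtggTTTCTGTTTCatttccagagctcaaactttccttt
Trim34a: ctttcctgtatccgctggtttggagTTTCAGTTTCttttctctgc
Trim21: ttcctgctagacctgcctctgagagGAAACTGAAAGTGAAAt
Trim26: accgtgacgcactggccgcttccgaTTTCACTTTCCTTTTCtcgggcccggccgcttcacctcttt
The Trim30a stretch is chr7:104465195-104465254 on the minus strand, from the second of its 2 windows, with the core beginning 36 bases before the start, and the Trim30d stretch is chr7:104507856-104507915 on the minus strand, with the core 41 bases before it. The Trim30c stretch is chr7:104400881-104400940 on the minus strand and begins its capitals 137 bases before the start. It shares 52 of 60 bases with that of Trim30a, and the single difference within the capitals is T3C, counted from their first base, with the base of Trim30a given first. The Trim12a stretch (chr7:104315466-104315510, minus strand) begins its core 10 bases after the RefSeq start, while those of Trim12c (chr7:104353344-104353403, minus strand) and Trim5 (chr7:104288121-104288180, minus strand) begin theirs 29 and 49 bases before it. The Trim34a stretch is chr7:104244442-104244486 on the plus strand and begins its core 10 bases after the start. Trim21 (chr7:102565453-102565494, minus strand) holds 2 overlapping cores from 13 bases after the start, and Trim26 (chr17:36836961-36837026, plus strand) 2 overlapping cores from 160 bases before it. A match is a description of the letters, not a binding site. The RefSeq start nearest to the GENCODE start of the gene lies 11238 bases from it for Trim30b, 16975 for Trim47, 25038 for Trim28, 12628 for Trim38, 6928 for Trim44 and 2102 for Trim2, so the windows of these 6 genes may not be the promoters in use. No window was used for Trim3, Trim8, Trim11, Trim14, Trim16, Trim17, Trim29, Trim33, Trim35, Trim36, Trim43c, Trim55 and Trim65.

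Away from the block, the interferon-linked members with the largest rises were Trim21, Trim14 and Trim25. Trim21, the cytosolic antibody receptor that directs antibody-bound particles to the proteasome (chr7:102557921-102565486, minus strand), was at 106.6 and 113.4 CPM in M1 and at 24.59 and 23.06 CPM in M0. This was a log2 fold change of 2.21 (SE 0.115, edgeR adjusted p = 4.283e-08), the largest among members outside the block. Trim25, which builds the K63-linked chains that activate RIG-I (chr11:88999376-89020293, plus strand), was at 513.3 and 537.0 CPM in M1 and at 240.0 and 236.4 CPM in M0, a log2 fold change of 1.14 (SE 0.0926, edgeR adjusted p = 1.752e-06). Both genes kept their libraries tightly together within each group.

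Trim14 has no RING domain and acts as an adaptor at the mitochondrial protein MAVS (chr4:46493781-46536141, minus strand). It was at 25.48 and 38.01 CPM in M1 and at 11.36 and 16.05 CPM in M0, a log2 fold change of 1.22 (SE 0.222, edgeR adjusted p = 9.57e-04), and the call was lost without M0 replicate 1 (0.08674). Of the exon bases of Trim14, 38% lie opposite other genes, chiefly Nans, whose level was 52 and 62.18 CPM in M1 and 35.24 and 40.27 CPM in M0 (log2 fold change 0.60). The sources used here do not say whether counting used the strand, so reads of Trim14 and Nans cannot be told apart there.

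Trim56 and Trim26 rose by less. Trim56, which ubiquitinates the DNA-sensing proteins STING and cGAS, was at 69.11 and 88.69 CPM in M1 and at 47.32 and 41.37 CPM in M0, a log2 fold change of 0.83 (edgeR adjusted p = 5.565e-04) whose call was lost without M0 replicate 2 (0.06692). Trim26, reported to act on IRF3 and on the TBK1 complex, was at 82.16 and 83.53 CPM in M1 and at 58.83 and 52.03 CPM in M0, a log2 fold change of 0.58 (edgeR adjusted p = 0.00144) whose call was lost without M0 replicate 2 (0.05735). Trim65, which activates the RNA sensor MDA5, was the only member of this list that fell, with 22.71 and 29.52 CPM in M1 and 37.16 and 41.20 CPM in M0. Its log2 fold change of -0.58 (edgeR adjusted p = 0.009248) lost its call without M0 replicate 1 (0.09361), M0 replicate 2 (0.1551) or M1 replicate 1 (0.06205). Of the exon bases of Trim65, 3.82% overlap the neighbouring Trim47, also lower in M1, on the same strand, and sharing of reads was not tested. In size the 3 changes, of Trim56, Trim26 and Trim65, lie near that of Trim5, the least changed of the called genes in the chromosome 7 block.

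Among the regulators of signalling, the call was for Trim13, a ligase anchored in the endoplasmic reticulum membrane. It was at 12.31 and 14.70 CPM in M1 and at 6.76 and 7.764 CPM in M0, a log2 fold change of 0.90 (edgeR adjusted p = 0.004932) that lost its call without M0 replicate 1 (0.08407) or M0 replicate 2 (0.05088). Of its windows, 14.2% also occur in Gm9359. Trim8, which modulates NF-kB and cytokine signalling, was at 116.7 and 115.2 CPM in M1 and at 105.0 and 105.5 CPM in M0, with a log2 fold change of 0.14 (95% interval -0.08 to 0.35, edgeR adjusted p = 0.2625) that was -0.11 with library totals. Trim44, which stabilises MAVS, was at 123.1 and 135.5 CPM in M1 and at 160.3 and 146.7 CPM in M0, with a log2 fold change of -0.25 (95% interval -0.47 to -0.02, edgeR adjusted p = 0.06799), called lower under upper-quartile scaling (0.01433) and library totals (0.002098). The libraries of the 2 groups did not overlap for either gene, and both intervals lie within 1 of 0 on the log2 scale.

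Trim27, an inhibitor of IKK-driven signalling, was at 92.19 and 86.54 CPM in M1 and at 89.89 and 79.15 CPM in M0. Its groups overlapped, and its log2 fold change of 0.08 (95% interval -0.16 to 0.32, edgeR adjusted p = 0.5836) was -0.02 under upper-quartile scaling and -0.17 with library totals. The other regulators tested had log2 fold changes of -0.12 (Trim23), -0.13 (Trim59), -0.31 (Trim32), -0.35 (Trim68) and -0.57 (Trim62). None passed in the reported fit, but Trim62 was called lower without M1 replicate 2 (-1.07, edgeR adjusted p = 0.01214) and Trim32 under upper-quartile scaling (-0.42, 0.03884). With library totals, Trim32 (-0.56, edgeR adjusted p = 0.009354), Trim62 (-0.82, 0.03779), Trim23 (-0.37, 0.04414) and Trim59 (-0.38, 0.04863) were called lower. Trim38, which in human and mouse cells regulates TLR3 signalling and cGAS, had 0 and 12 reads in M1 and 6 and 0 in M0 and was not tested, and Trim29 had at most 10 reads in a library.

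The 2 largest falls were of members with other roles. Trim47, a PRY-SPRY member studied mainly in tumours and vessels (chr11:116105752-116127210, minus strand), was at 7.693 and 8.119 CPM in M1 and at 44.49 and 47.92 CPM in M0. Its log2 fold change was -2.55 (SE 0.152, edgeR adjusted p = 1.304e-07), and 8.23% of its exon bases overlap the neighbouring Trim65 on the same strand. Trim16, which takes part in the autophagy of damaged lysosomes (chr11:62820231-62850808, plus strand), was at 2.708 and 2.952 CPM in M1 and at 11.75 and 11.94 CPM in M0. A log2 fold change of -2.06 resulted (SE 0.248, edgeR adjusted p = 4.317e-05), and 5.19% of its exon bases overlap Fbxw10, which had 0.62 and 0.37 CPM in M1 and 2.49 and 0.70 CPM in M0. In both genes the libraries of a group lay close together and far from the other group.

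Trim37, which is needed for peroxisomal protein import and restrains centriole assembly, was at 37.23 and 37.52 CPM in M1 and at 72.83 and 56.90 CPM in M0, a log2 fold change of -0.80 (edgeR adjusted p = 6.556e-04). Trim35 was at 124.1 and 125.4 CPM in M1 and at 147.6 and 151.9 CPM in M0, a log2 fold change of -0.26 (edgeR adjusted p = 0.04049). The Trim35 call was the weakest in the family, and was lost on leaving out any of the 4 libraries (0.08616 to 0.2008), with DESeq2 (0.06175) and with no low-count filter (0.06095). Of the remaining tested members with other roles besides Trim6, none passed. Their log2 fold changes were 0.79 (Trim7), 0.16 (Trim41), -0.10 (Trim39), -0.14 (Trim11) and -0.28 (Trim45). Trim41 was at -0.09 with library totals.

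The chromatin branch moved the other way from the interferon-linked list where it was called. Trim24, which reads unmodified and acetylated histone H3 and co-regulates nuclear receptors, was at 20.00 and 16.79 CPM in M1 and at 32.41 and 27.64 CPM in M0, a log2 fold change of -0.71 (edgeR adjusted p = 0.003799) that lost its call without M0 replicate 1 (0.0978). Trim33, a SMAD4 ligase that also binds the Ifnb1 locus in mouse macrophages, was at 64.44 and 68.46 CPM in M1 and at 85.39 and 89.52 CPM in M0, a log2 fold change of -0.40 (edgeR adjusted p = 0.009945) that lost its call without M0 replicate 1 (0.08219) or M0 replicate 2 (0.1149). Trim28, the KAP1 corepressor recruited by KRAB zinc finger proteins, was at 342.9 and 299.2 CPM in M1 and at 333.3 and 324.2 CPM in M0. Its groups overlapped, and its log2 fold change of -0.03 did not pass (95% interval -0.26 to 0.19, edgeR adjusted p = 0.8036), although with library totals it was -0.29 and called (0.02986), and without M1 replicate 2 it was 0.07. The fourth member, Trim66, had 0 and 6 reads in M1 and 2 and 12 in M0. The neuronal and cytoskeletal members that were tested, Trim2 (-0.63), Trim3 (-0.07), Trim36 (-0.03) and Trim46 (-0.21), all had intervals that include 0.

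Not tested were Trim9, Trim15, Trim17, Trim29, Trim38, Trim43a, Trim43c, Trim55, Trim63, Trim66, Trim69, Trim71, Trim72 and Trim75. No library held more than 12 reads of any of these 14, and Trim75 had none. Trim55, Trim63 and Trim72, the ligases of striated muscle, had at most 4 reads in a library, and the striated muscle markers summed to 1.29 and 0.677 CPM in M1 and to 0.863 and 0.985 CPM in M0.

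Per kilobase of exon, the scale on which levels of different genes were compared, the order at the top of the family changed. In M1, Trim30a stood first at 192 ± 1.59 CPM per kb, followed by Trim25 at 91.3 ± 2.9, Trim28 at 77.2 ± 7.44 and Trim30d at 71 ± 2.54 (mean ± SD, n = 2). In M0, Trim28 stood first at 79.1 ± 1.55 CPM per kb, followed by Trim25 at 41.4 ± 0.436, Trim35 at 32.4 ± 0.651 and Trim8 at 28.4 ± 0.0986. Trim30a was rank 6 of the family in M0 (26.8 ± 2.81 CPM per kb) and Trim30d rank 12 (9.18 ± 0.377). In M1, the means of Trim28 and Trim30d lay within their SDs of each other, as did those of Trim35 and Trim30c and those of Trim30c and Trim12c. In M0, that held for Trim8, Trim44 and Trim30a, each with its neighbour, and for Trim27 and Trim41. The SD ranges of Trim47 and Trim27 overlapped there, although their means lay further apart than either SD. Trim30d lay within its SD of Trim32 (9.16 ± 0.27) and Trim37 (8.99 ± 1.56) in M0, so its rank there is loose. Trim30c was rank 8 in M1 (25.8 ± 3.08 CPM per kb) and rank 36 in M0 (0.581 ± 0.229), whereas Trim47 was rank 30 in M1 (2.89 ± 0.11) and rank 7 in M0 (16.9 ± 0.886). The order depends in part on the length used: per kilobase of the longest transcript, Trim28 was rank 2 and Trim25 rank 3 in M1, with Trim30a still rank 1 and Trim30d rank 4.

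**Figure D4:**
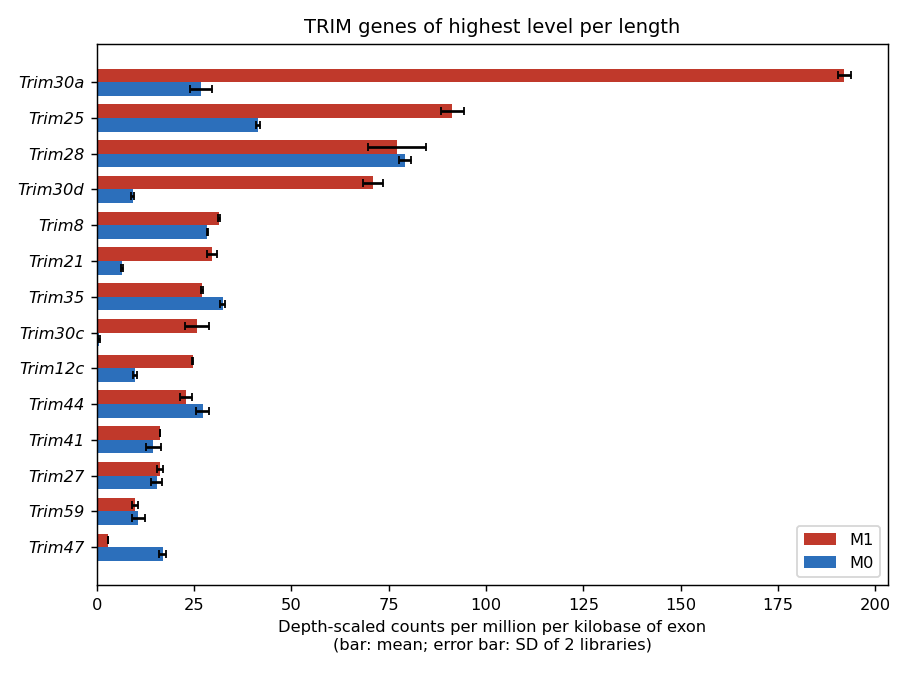
Level per length of the TRIM genes among the 10 highest in either group, in depth-scaled CPM per kilobase of exon, with bars for the mean and error bars for the SD of 2 libraries, M1 in red above M0 in blue. Trim30a leads in M1 at 192 and Trim28 leads in M0 at 79.1.

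Genes that work with the family were read from fixed lists in the same fit. The counts of each list stand beside the 24.2% of all tested genes called higher and the 24% called lower. Of the TRIM and TRIM-like proteins that carry another symbol, 5 of 10 listed were tested, with 3 higher, 1 lower and 1 that did not pass. Mefv, which encodes the inflammasome sensor pyrin, was at 229.6 and 249.4 CPM in M1 and at 8.294 and 12.98 CPM in M0, a log2 fold change of 4.50 (SE 0.178, edgeR adjusted p = 4.01e-09). Pml, the scaffold of nuclear bodies, was at 156.7 and 178.6 CPM in M1 and at 37.49 and 38.94 CPM in M0, a log2 fold change of 2.13 (SE 0.113, edgeR adjusted p = 4.671e-08). Rnf135, the RIG-I ligase Riplet, rose by 1.32 on the log2 scale, and the microtubule-binding Mid2 had a log2 fold change of -2.46 from at most 2.028 CPM in any library.

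Of the E2 enzymes, 12 were tested, with 4 higher, 2 lower and 6 that did not pass. Ube2l6, the E2 for the ubiquitin-like ISG15, was at 612.1 and 531.3 CPM in M1 and at 34.33 and 35.17 CPM in M0, a log2 fold change of 4.04 (SE 0.116, edgeR adjusted p = 4.28e-10). The rises of Ube2e1 (0.74) and Ube2w (0.38), and that of Ube2n (0.33), which builds K63-linked chains, were small. Ube2d1 (-0.64) was among the lower. The other E2 enzymes of the widely used Ube2d group, Ube2d2a (0.08) and Ube2d3 (0.13), did not pass.

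The targets and signal partners of TRIM ligases held 22 tested genes, with 11 higher, none lower and 11 that did not pass. Irf7, the transcription factor that amplifies type I interferon, was at 1504 and 1555 CPM in M1 and at 15.58 and 17.67 CPM in M0, a log2 fold change of 6.53 (SE 0.125, edgeR adjusted p = 3.913e-11). Ddx58, which encodes RIG-I, the substrate of Trim25, was at 709.1 and 760.9 CPM in M1 and at 51.06 and 59.22 CPM in M0, a log2 fold change of 3.74 (SE 0.115, edgeR adjusted p = 6.695e-10). Ifih1, which encodes MDA5, the substrate of Trim65, was at 450.5 and 462.4 CPM in M1 and at 44.11 and 51.8 CPM in M0, a log2 fold change of 3.25 (SE 0.114, edgeR adjusted p = 1.664e-09). The substrates of Trim30a, Tab2 (0.04) and Tab3 (-0.31), and the adaptor Mavs (-0.26) did not pass.

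In the complex around Trim28, 12 genes were tested, with 2 higher, 3 lower and 7 that did not pass. Beside the 24.2% and 24% of all tested genes called higher and lower, these counts do not set the list apart. Morc3 (1.00) and Pphln1, a HUSH subunit (0.51), were higher, and the NuRD helicase gene Chd3 (-0.79), the HP1-alpha gene Cbx5 (-0.77) and the SETDB1 partner Atf7ip (-0.31) were lower, each value a log2 fold change. In the interferon signal itself, 11 genes were tested and 9 were higher, with 1 lower and 1 that did not pass. Stat2 rose by 3.17 and Jak2 by 3.16 on the log2 scale, while Ifngr1, the ligand-binding chain of the interferon gamma receptor, was lower (-1.20). Over the 5 lists, 29 genes were higher and 7 lower, and the lower count was 3 without M0 replicate 1, 3 without M0 replicate 2, 4 without M1 replicate 1 and 17 with library totals.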

How the data were processed

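The deposited files hold, per library, a raw read count for each gene symbol. For how the authors made them, mm10, Subread 2.0.1, featureCounts, DESeq2 1.30.1 and R 4.0.4 are named, with no roles or settings, per the submitters' processing notes. Annotation release, strand setting and treatment of multi-mapping reads are not given in the sources used here. From the counts, edgeR 4.0.16 in R 4.3.3 (filterByExpr with a minimum count of 10 and total of 15, TMM, glmQLFit and glmQLFTest, group as the only term) was fitted over all 18256 symbols, of which 12966 passed the filter, with Benjamini-Hochberg adjustment over those. limma 3.58.1 (voom) and DESeq2 1.42.0 were alternatives. The fit was tested on simulated data. The biological coefficient of variation was 10.9%, with 2 residual degrees of freedom. TMM factors were 0.911 and 0.922 in M1 and 1.099 and 1.084 in M0. A floor of 3 reads equals 0.185 and 0.185 CPM in M1 and 0.144 and 0.174 CPM in M0, and covers counting error only. Replicates differed beyond sampling noise (chi-square per degree of freedom 12.6 in M1, 8.78 in M0), so none was a repeat deposit.

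Levels per kilobase used the exon union of GENCODE M21 in place of the RefSeq exons planned. Shared sequence was the share of 50-base exon windows found in other genes' transcripts. Motifs were read from RefSeq promoter windows. Values were given in full for called members with a log2 fold change of at least 1 in size, the Trim12, Trim30 and Trim34 genes and the 4 members of highest level per length that did not pass, and for partner lists up to 3 called genes each way. Trim6, Trim62, Tab2, Tab3, Mavs, Ube2d2a and Ube2d3 were named after their values were seen. Members, lists and tests were chosen with earlier results of these data known. A few listed genes are not reported here by name.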

Additional observations from a re-analysis of the deposited data

How the results depend on the processing

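The median over all genes moved by -0.252 (log2) with library totals and by -0.104 under upper-quartile scaling. With library totals 14 members were higher and 14 lower (15 and 7 in the reported fit), partner lists had 17 lower, and all genes had 2026 higher and 4776 lower. Beside that shift of all genes, library totals put Trim27 at -0.17, Trim41 at -0.09 and Trim8 at -0.11, and upper-quartile scaling put Trim27 at -0.02, none called. Leaving out 1 library at a time, where the lone library is assumed to vary like the other group's, gave 10 to 15 members higher and 3 to 7 lower, 1691 to 2965 genes higher and 1463 to 2854 lower over all genes, and 24 to 31 partner genes higher and 3 to 7 lower. In these fits 7 members that had not passed changed sign without being called, with log2 fold changes of -0.0049 to 0.18 for Trim27, -0.14 to 0.07 for Trim28, -0.14 to 0.09 for Trim36, -0.58 to 0.09 for Trim45, -0.49 to 0.13 for Trim46, -0.27 to 0.04 for Trim59 and -0.12 to 1.34 for Trim7. The cause was not tested. With DESeq2 15 members were higher and 6 lower (Trim35 lost), with limma-voom 15 and 7, with RLE factors 15 and 7, with no filter 16 and 6, and with a stricter filter 14 and 7. In the 150 promoter bases nearest the start the kB form was in 0 members and the ISRE core in 8. With the replicate number as a block 15 members were higher and 6 lower (Trim35 lost, edgeR adjusted p = 0.127), against 2957 and 2975 genes over all. Same-numbered libraries deviated with a correlation of -0.113, and the crossed block, added after seeing the data, gave 15 and 10 members and 3648 and 3627 genes. The labels do not say that the numbers pair libraries. Low counts limit what can be said of the 14 untested members and Trim34b. Whether depth or little expression lies behind these counts was not tested.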
